A study of Mus musculus with 6 samples.

Results

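Lipolysis and lipoprotein lipase genes were examined in inguinal adipose tissue (iAT) of young mice. The 10 genes were chosen by name, *Pnpla2*, *Pnpla3*, *Lipe*, *Mgll*, *Abhd5* and *G0s2* for the lipases inside the cell with their cofactors, and *Lpl*, *Lmf1*, *Gpihbp1* and *Angptl4* for lipoprotein lipase with its partners. All 10 were found among the 19831 genes of the deposited table. The tissue was whole iAT taken at postnatal day 6 from mice kept under SPF conditions. RNA sequencing compared 3 wild-type samples with 3 samples that lack neuropeptide FF receptor 1 (Npffr1-KO), and the labels name no other allele or treatment, no sex and no litter. The methods of the paper name male C57BL/6 mice but do not mention the Npffr1-KO mice, so whether this holds for them is not stated. Whether the receptor was lost in all cells or in some is not given in the labels. The table holds 1 value per gene and genotype, in read counts normalized for library size. The ratio of both values is the authors' fitted fold change, so a value is not the plain mean of its 3 samples. No value per sample and no spread between replicates can be given for the members. No test of the members between genotypes could be run from these values, and p-values that the authors deposited beside them were not used. A gene is called here when the values of both genotypes differ by more than 1.5-fold.

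Stored triglyceride is broken down inside the adipocyte in steps. Adipose triglyceride lipase (ATGL, encoded by *Pnpla2*) removes the first fatty acid, hormone-sensitive lipase (*Lipe*) acts on the diglyceride, and monoglyceride lipase (*Mgll*) releases the last fatty acid and glycerol. ABHD5, also called CGI-58, activates ATGL, and the G0S2 protein inhibits it. Fat is supplied from the blood by lipoprotein lipase (*Lpl*), which LMF1 helps to fold in the endoplasmic reticulum, GPIHBP1 carries to the capillary lumen, and ANGPTL4 inactivates.

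*G0s2* was the single member past 1.5-fold, and it was higher in Npffr1-KO. Its authors' value was 3927 normalized counts in wild-type against 8039 in Npffr1-KO, a 2.05-fold difference. The lipase it inhibits did not move with it, as *Pnpla2* had 34348 normalized counts in wild-type against 31768 in Npffr1-KO. The promoters of *G0s2* and *Pnpla2* are shown because the inhibitor was past 1.5-fold and its enzyme was not. Those of *Plin5* and *Angptl8* are shown beside them because they were the other lipase-related genes past 1.5-fold in the ratio as deposited. Each is the 250 bases before a RefSeq start, the first listed, on the strand of the gene (GRCm38.p6, a build that was not compared with the one the authors used). Capitals mark matches on either strand to the GC box GGGCGG, to the box named CCAAT, and to the nuclear receptor half-site AGGTCA.

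*G0s2* (chr1:193273189-193273438, minus strand): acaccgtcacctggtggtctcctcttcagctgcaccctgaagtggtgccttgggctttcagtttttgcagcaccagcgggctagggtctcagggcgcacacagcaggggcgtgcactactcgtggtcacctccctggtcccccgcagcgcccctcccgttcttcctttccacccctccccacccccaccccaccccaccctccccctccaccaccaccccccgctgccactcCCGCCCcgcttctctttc

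*Pnpla2* (chr7:141454938-141455187, plus strand): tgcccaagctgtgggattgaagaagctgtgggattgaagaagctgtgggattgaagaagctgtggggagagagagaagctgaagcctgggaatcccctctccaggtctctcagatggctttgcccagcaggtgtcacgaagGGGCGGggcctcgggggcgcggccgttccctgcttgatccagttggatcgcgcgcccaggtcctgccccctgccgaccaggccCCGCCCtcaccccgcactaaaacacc

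*Plin5* (chr17:56117549-56117798, minus strand): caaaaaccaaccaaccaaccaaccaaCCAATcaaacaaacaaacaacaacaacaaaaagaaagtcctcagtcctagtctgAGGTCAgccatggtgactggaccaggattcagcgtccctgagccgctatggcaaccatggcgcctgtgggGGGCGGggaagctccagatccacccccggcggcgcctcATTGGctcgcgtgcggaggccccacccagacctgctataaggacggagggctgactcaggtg

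*Angptl8* (chr9:21835260-21835509, plus strand): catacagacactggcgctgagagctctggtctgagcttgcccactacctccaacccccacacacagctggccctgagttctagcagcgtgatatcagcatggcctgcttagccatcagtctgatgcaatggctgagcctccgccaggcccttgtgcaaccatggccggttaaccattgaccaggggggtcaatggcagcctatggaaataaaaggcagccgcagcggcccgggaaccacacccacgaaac

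The *G0s2* window held a single GC box, 18 to 13 bases before the start, while that of *Pnpla2* held 2. GGGCGG occurs in 32.7% of the 32841 RefSeq windows of this length. The printed *Plin5* window had 2 CCAAT matches, a GC box and 1 AGGTCA, letters found in 33.9%, 32.7% and 14.0% of all windows. The window before the other RefSeq start of *Plin5* held 2 GC boxes and no match to the other motifs searched. TATAAA, the E-box CACGTG, the cyclic AMP element TGACGTCA, TTGCGCAA and the direct repeat AGGTCANAGGTCA were searched as well on both strands, and none of the 4 windows held one. The AGGTCA half-site is part of that repeat. Of the members, 7 were matched in the RefSeq table of starts. *Lpl*, *Gpihbp1* and *Angptl4* were not. The window of *Pnpla3* held TGACGTCA from 46 to 39 bases before the start, which 1.55% of all windows do. CACGTG, in 6.02% of windows, was found before 1 of the 2 starts of *Lipe* and before 1 of the 2 of *Mgll*, and not before the other. These matches are descriptions of letters and were not tied to binding.

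The members were abundant in iAT. Together they made up 1.12% of all normalized counts in each genotype. Levels between genes were compared per kilobase of the gene length listed in the table. On that scale 8 of the 10 lay in the top 10% of the 15309 genes whose mean reached 10 normalized counts, the genes tested here. *Lpl* was the highest, with 33789.7 normalized counts per kilobase in wild-type, in place 25 among the genes tested. *Pnpla2* followed with 13035 per kilobase, 2.59-fold below *Lpl*. *Lipe* and *Mgll*, the lipases of the next steps, were close to each other at 9086 and 8949 per kilobase. *Gpihbp1*, *Angptl4* and *G0s2* came next in wild-type with 5829, 5446 and 4637 per kilobase. *Pnpla3*, a lipase related to ATGL and known for its part in fatty liver, stood at 1309.7 per kilobase. *Abhd5* had 937 and *Lmf1* 332 per kilobase, the lowest levels of the members. Without values per sample it is not known which neighbours in this order differ beyond their spread, and *Lipe* and *Mgll* were only 1.02-fold apart. In Npffr1-KO 5 of the 10 had another place in the order. *G0s2* was in the seventh place in wild-type and in the third in Npffr1-KO, with 9491 per kilobase, past *Lipe* at 9255. The other places shifted as *G0s2* passed them.

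**Figure D1:**
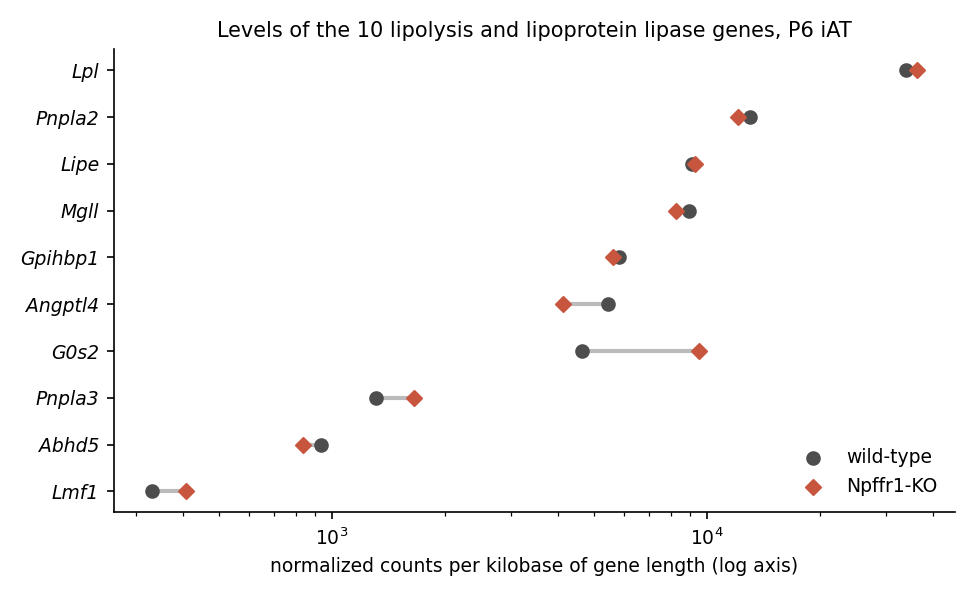
Level of each member in normalized counts per kilobase of gene length (log axis), with circles for wild-type and diamonds for Npffr1-KO, 1 authors' value per genotype and no error. *G0s2* has the longest line, from 4637 to 9491, and *Lpl* is the highest in both genotypes.

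Across the 10 members the median log2 ratio of Npffr1-KO to wild-type was -0.01, beside 0.01 over all genes tested. Ratios were above 0 for 5 members and below 0 for 5. The 9 members other than *G0s2* stayed within 1.5-fold, with a largest difference of 0.40 on the log2 scale. Of all genes tested, 5.89% were past 1.5-fold and 2.78% were past it in the direction of *G0s2*, beside 1 of 10 members. With centring on genes of like length, 5.75% of genes were past it, again beside 1 of 10. Where a difference of 25% was enough, 3 of 10 members were called, beside 23.7% of the genes tested. These shares take in genes with few reads, whose ratios are drawn towards 0, whereas the lowest member had a mean of 652. Shares among genes of like level are not given. A single member past the line is no result about the members as a group. In whole tissue, fewer cells of a type and less RNA per cell cannot be told apart.

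Among the lipases and cofactors inside the cell, *G0s2* (Entrez 14373, 847 bases) had a log2 ratio of 1.03. Of the genes tested, 64 or 0.418% had a higher one. Short genes tended to be higher in Npffr1-KO in this table, with a median of 0.21 over the 766 genes of 837 to 1117 bases that are like *G0s2* in length. In this length class 6.92% of genes were past 1.5-fold, and 0.914% had a higher ratio than *G0s2*. Centred on the class, the log2 ratio of *G0s2* was 0.83 and remained past 1.5-fold. No sequence of 31 bases in its annotated transcripts occurs in a transcript of another gene.

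The lipases of the 3 steps were close to even between the genotypes. *Pnpla2* (Entrez 66853) had a log2 ratio of -0.11. *Lipe* (Entrez 16890) had 25413 normalized counts in wild-type against 25885 in Npffr1-KO, a log2 ratio of 0.03. *Mgll* (Entrez 23945) had 32619.5 and 30169, a log2 ratio of -0.11. All 3 lay within 0.2 of 0 on the log2 scale, where 55.3% of the genes tested are. The value of *Lipe* is less certain, since 12.9% of the 31-base sequences of its transcripts also occur in other genes, most of them in *4732471J01Rik*. That neighbour had 232 normalized counts in wild-type against 122 in Npffr1-KO, few beside those of *Lipe*.

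The activator of ATGL, *Abhd5* (Entrez 67469), had 2949.6 normalized counts in wild-type against 2634 in Npffr1-KO, a log2 ratio of -0.16. Of its 31-base sequences 16.6% occur in other genes, so its value is less certain too, and the levels of those genes are not given here. *Pnpla3* (Entrez 116939) had 6089 normalized counts in wild-type against 7687 in Npffr1-KO, a log2 ratio of 0.34 that stayed below 1.5-fold. As a long gene, it lay further from the genes of its own length, with a centred value of 0.43. In its class of 4584 to 5151 bases, 5.23% of genes had a higher ratio. The value of *Pnpla3* is also less certain, since 8.83% of its 31-base sequences occur in other genes.

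**Figure D2:**
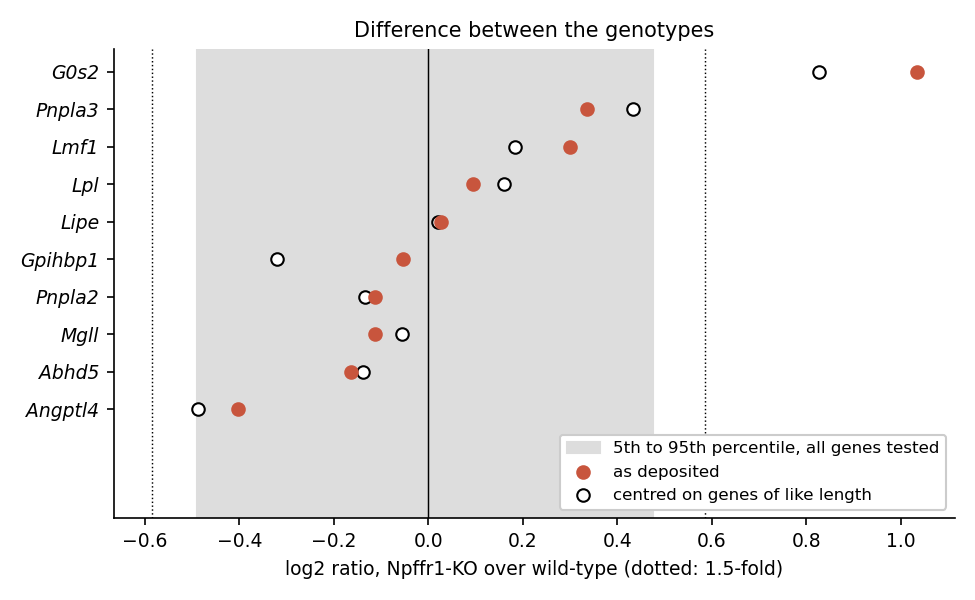
Log2 ratio of Npffr1-KO to wild-type for each member, as deposited (filled) and centred on genes of like length (open), over the range from the 5th to the 95th percentile of all genes tested, -0.49 to 0.48 (grey). *G0s2* lies outside the range and past the dotted 1.5-fold line on both scales, and the other 9 lie inside the range as deposited. The grey range is that of the deposited ratios. For centred ratios the same percentiles are -0.51 and 0.42, and *Pnpla3*, with 0.43 when centred, lies outside them.

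The inhibitor was then set against its enzyme. Per gene length, *G0s2* stood at 0.356 of the *Pnpla2* level in wild-type and at 0.787 in Npffr1-KO. The activator kept nearly the same proportion, with *Abhd5* at 0.0719 of *Pnpla2* in wild-type against 0.0694 in Npffr1-KO. *G0s2* thus exceeded *Abhd5* by 4.95-fold per length in wild-type and by 11.3-fold in Npffr1-KO. *Mgll* was at 0.687 of *Pnpla2* in both genotypes, and *Lipe* was at 0.697 in wild-type against 0.768 in Npffr1-KO. Division by gene length does not remove the tendency of short genes to be higher in Npffr1-KO. The proportions were not centred on genes of like length. These are proportions of transcripts, and proteins were not measured here.

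**Figure D3:**
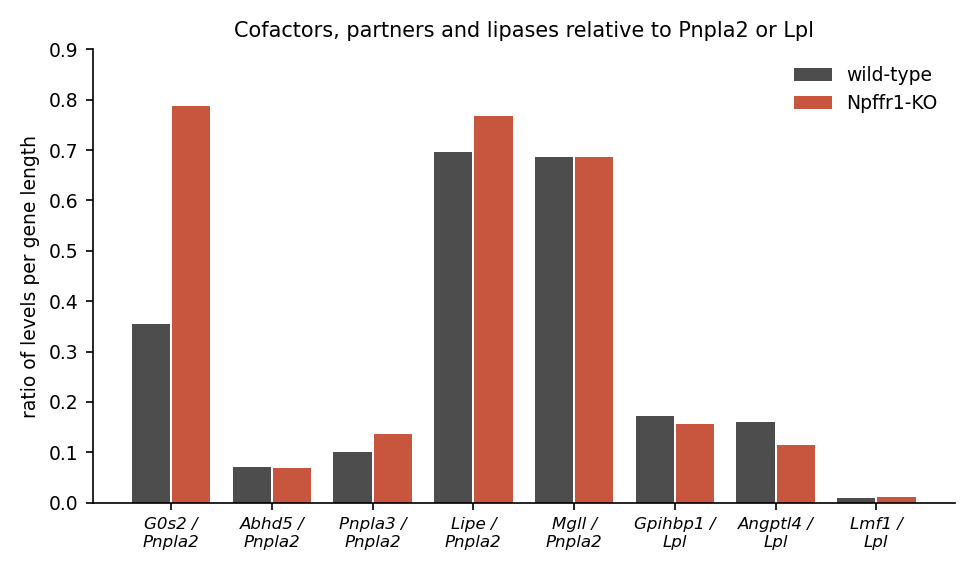
Level of each gene relative to *Pnpla2* or *Lpl*, both divided by gene length, in wild-type (grey bars) and Npffr1-KO (red bars), 1 value per genotype and no error. The bars of *G0s2* relative to *Pnpla2* go from 0.356 to 0.787, while those of *Mgll* are level at 0.687. The values are not centred on genes of like length.

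In the lipoprotein lipase group no member was past 1.5-fold. *Lpl* (Entrez 16956) had 136814 normalized counts in wild-type against 146169.6 in Npffr1-KO, a log2 ratio of 0.10. It was the eighth highest of all genes in wild-type before division by length. *Lmf1* (Entrez 76483), the chaperone factor, had 585 normalized counts in wild-type against 719.8 in Npffr1-KO, a log2 ratio of 0.30. *Lmf1* thus had the lowest level and *Lpl* the highest, 102-fold apart per length in wild-type and 88.4-fold apart in Npffr1-KO. These values were not centred on genes of like length.

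*Angptl4* (Entrez 57875), which encodes the inhibitor of lipoprotein lipase, was the lowest of the members in ratio. Its value was 10435 normalized counts in wild-type against 7897 in Npffr1-KO, a log2 ratio of -0.40, and 7.89% of the genes tested had a lower one. Centred on genes of like length it was -0.49, still short of 1.5-fold. Relative to *Lpl*, per gene length and without centring on genes of like length, it stood at 0.161 in wild-type against 0.114 in Npffr1-KO. The ratios of *Angptl4*, for a secreted inhibitor, and *G0s2*, for a droplet-bound one, had opposite signs, but only *G0s2* was past 1.5-fold. With a single gene of each kind, no contrast between secreted and droplet-bound inhibition can be drawn. Outside the members, *Angptl8*, which encodes a secreted regulator of plasma triglyceride, was 2.38-fold higher in Npffr1-KO. *Hilpda*, whose product also inhibits ATGL, had a log2 ratio of 0.22, or 0.01 when centred on genes of like length.

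*Gpihbp1* (Entrez 68453), made by capillary endothelial cells, had 4815 normalized counts in wild-type against 4638 in Npffr1-KO, a log2 ratio of -0.05. It is the shortest member, with 826 bases, and its length class had a median of 0.27, so that its centred value was -0.32. This was the largest shift that the centring made among the members. Of 10 other capillary endothelial genes, 8 had a ratio below 0 as deposited and none was past 1.5-fold. Their median was -0.32 as deposited, where *Gpihbp1* had -0.05, and -0.28 when centred on length, where *Gpihbp1* had -0.32. Their summed level was 78638 normalized counts in wild-type against 64078 in Npffr1-KO. Of these genes, *Cdh5* had a log2 ratio of -0.37 as deposited and *Pecam1* of -0.28. The part of endothelial content in the *Gpihbp1* value was not tested.

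**Figure D4:**
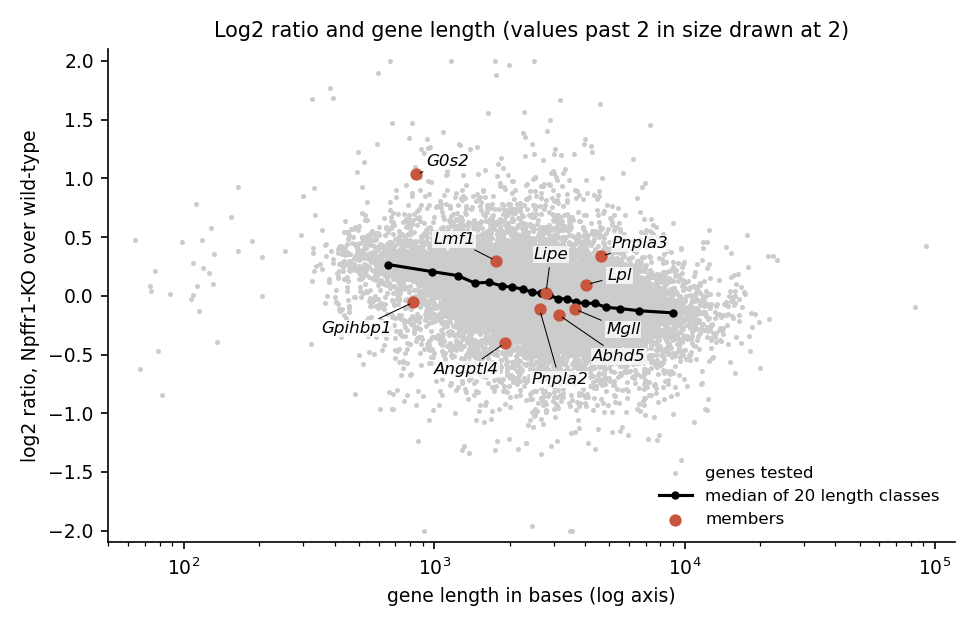
Log2 ratio of Npffr1-KO to wild-type over gene length in bases (log axis) for the 15309 genes tested (grey), the medians of 20 length classes (black) and the 10 members (red). The medians go from 0.27 for the shortest genes to -0.14 for the longest, and *G0s2* and *Gpihbp1*, of nearly equal length, lie above and below them.

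Markers of the tissue were checked beside these values. All 9 adipocyte markers were present, from 3628 to 261767 normalized counts in wild-type, and their median log2 ratio was -0.01. Of them *Lep*, which encodes leptin, was past 1.5-fold with a log2 ratio of 1.05. Of 9 thermogenic adipocyte genes tested, 7 were past 1.5-fold and higher in Npffr1-KO. Their median was 1.55, and their summed level went from 2331 to 6566 normalized counts. Of 9 skeletal muscle genes, all above 0, 5 were past 1.5-fold, or 3 when centred on length. Their median log2 ratio was 0.60. Most of their summed level, 2551 in wild-type against 3359 in Npffr1-KO, came from *Des*, with 1987 against 2362. *Des* had the lowest log2 ratio of these muscle genes, 0.25, so the sum says little of the others. Of 10 macrophage genes none was past 1.5-fold, with a median of 0.14, or 0.03 when centred on length. Of 5 epithelial genes tested *Cdh1* was past it, with a log2 ratio of -0.72, and the median was -0.13. The part of the thermogenic and muscle genes in the *G0s2* value was not tested. The targeted gene itself was hardly covered. *Npffr1* had 6 reads in the 3 wild-type libraries together and 0 in the 3 of Npffr1-KO, which allows little check of the labels.

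Other genes of the same pathways were described from lists chosen by function. Of 17 further lipases and regulators inside cells, 16 were tested and none was past 1.5-fold. The nearest was *Ces1d*, a carboxylesterase that hydrolyses triglyceride, with 3817 normalized counts in wild-type, 5589.7 in Npffr1-KO and a log2 ratio of 0.55. *Pnpla8*, a mitochondrial phospholipase, had a log2 ratio of -0.05. *Hilpda*, whose product also inhibits ATGL, had 224 normalized counts in wild-type against 261 in Npffr1-KO. Its log2 ratio was 0.22, or 0.01 when centred on genes of like length, unlike that of *G0s2*.

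Of 14 genes of vessel wall lipases and lipoproteins, 13 were tested, and *Angptl8*, which encodes a secreted regulator of plasma triglyceride, was the single one past 1.5-fold as deposited. It had 175 normalized counts in wild-type against 417 in Npffr1-KO, a 2.38-fold difference, with a log2 ratio of 1.05 when centred on length. *Apoc2*, whose product activates lipoprotein lipase, had 44.4 normalized counts in wild-type against 30.1 in Npffr1-KO. Its log2 ratio of -0.56 was short of 1.5-fold as deposited, and its centred value of -0.83 was past it. The deposited ratio is fitted and drawn towards 0 where reads are few. Plain means over the libraries, worked out from its reads as given below, were 47.1 for wild-type and 27.4 for Npffr1-KO. These means lay more than 1.5-fold apart, but the libraries of both genotypes overlapped. *Apoe* had a log2 ratio of -0.06 and *Sel1l*, a partner of LMF1 in the folding of the lipase, of -0.15. Of 12 genes that hold lipases at the droplet or carry their products, *Plin5* was past 1.5-fold, with 71.2 normalized counts in wild-type against 278 in Npffr1-KO and a log2 ratio of 1.97. *Gk*, which encodes glycerol kinase, had a log2 ratio of 0.53 and passed 1.5-fold only when centred on length, with 0.60. PLIN5 binds ATGL and ABHD5 at the droplet and is known from oxidative tissues. *Plin1*, the perilipin of white adipocytes, had 13552 and 15015 normalized counts and a log2 ratio of 0.15. *Fabp4*, the fatty acid carrier, had one of 0.15 too, and *Cd36*, the fatty acid transporter, had -0.32.

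**Figure D5:**
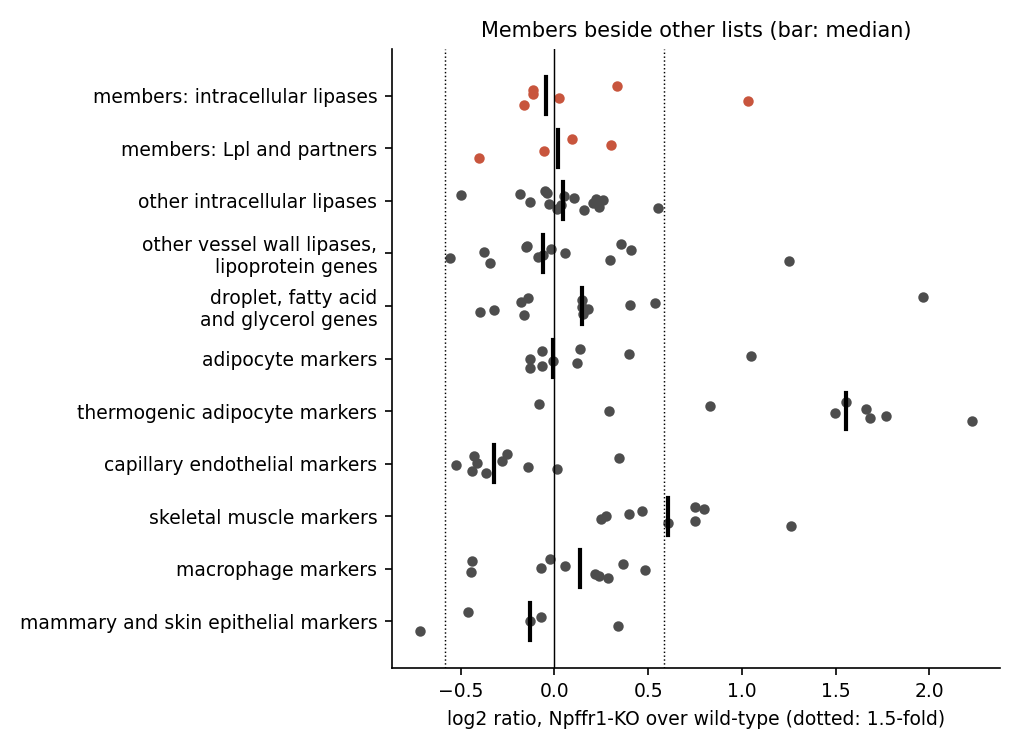
Log2 ratio of Npffr1-KO to wild-type for every tested gene of each list, with the 10 members in red, other genes in grey, a bar for the median and dotted lines at 1.5-fold. *G0s2*, *Angptl8* and *Plin5* each stand apart in lists whose medians lie between -0.06 and 0.15, and the thermogenic genes have a median of 1.55.

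Reads of each library could be worked out for the lowest of these other genes, since a read has a slightly different weight in each of the 6 libraries. No member was low enough. For *Lmf1*, with a mean of 652, 225 combinations of whole reads gave the deposited mean when each library was allowed to lie within 25% of its genotype's value. Of 9 other listed genes with a mean of up to 100, 8 had exactly 1 combination, and the genotypes overlapped in all 8. *Lipg*, the endothelial lipase, had 102, 58 and 72 wild-type reads and, in the libraries of Npffr1-KO, 70, 63 and 34 reads. *Apoc2* had 45, 27 and 72 reads in wild-type and 14, 55 and 12 in Npffr1-KO, a difference of -0.98 with an SE of 0.78 on the scale of log2(normalized count + 1). One Npffr1-KO library thus lay inside the wild-type range. An exact two-sided permutation test of the 3 against 3 libraries, which cannot go below 0.1, gave 0.3 for *Apoc2* and no lower value for the others, with a lowest Benjamini-Hochberg adjusted p of 0.96 over the 8 genes. Whether the libraries came from separate animals is not given, so this spread may be technical.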

How the data were processed

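The 3 wild-type and 3 Npffr1-KO samples were grouped by their titles. The authors' deposited table gives a signal per gene, read counts normalized for library size, as 1 value per genotype, with gene length in bases as another deposited column. Per the labels' processing notes, Bowtie2, RSEM and DESeq2 were used, with no version, and build, annotation and strand setting are not stated there or in the paper. The mean of both values is the mean over 6 libraries, and their ratio is the authors' fitted fold change, which is drawn towards 0 where reads are few. The log2 ratios given here therefore carry the same values as the authors' fold change column, although that column was not read. The authors' p-values, and a shorter table that repeats some genes, were not used. The values summed to 23137343 in wild-type and to 23640005 in Npffr1-KO, with size factors from 0.916 to 1.04, and intervals cannot be drawn from such values.

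Log2 ratios were computed without a pseudocount (Python 3.11.15) over the 15309 genes whose mean reached 10. For the length alternative, the median of each of 20 length classes was subtracted. Reads per library of low genes were found by searching all combinations of whole reads that give the deposited mean, tested on simulated data. The genotype of a library followed from the column that its single-read genes raise, and libraries were not tied to sample numbers. Sequences of 31 bases were compared across GENCODE M21 transcripts (GRCm38). All 10 members are named, and of other lists at most the 3 highest and genes past 1.5-fold. The thermogenic and skeletal muscle genes past 1.5-fold are given as counts and not by name. *Hilpda*, *Plin1*, *Lipg*, *Apoc2*, *Gk*, *Des*, *Hsd11b1*, *Lamb3*, *Ly6c2*, *Kank3* and *4732471J01Rik* were named for their function or after their values were seen. The members and lists were chosen with earlier results of these data known.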

Additional observations from a re-analysis of the deposited data

How the results depend on the processing

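Each of the 10 members kept its side of 1.5-fold under 6 alternatives, which were a pseudocount of 1 or 10, centring on the median of all genes, on genes of like length or on the adipocyte markers, and scaling to equal sums. The log2 ratio of *G0s2* ranged from 0.83 to 1.04. One member changed sign, *Lipe*, with -0.0045 after scaling to equal sums. Without the length centring the largest move of a member was 0.031. Where a difference of 25% was enough, 3 members were called, *G0s2*, *Pnpla3* and *Angptl4*. In the order of levels, 5 members had another place with the Npffr1-KO value and 6 when values were not divided by gene length. Centring on the adipocyte markers and the search of reads in other genes were chosen after seeing the data. Leaving out each library in turn could be done for 8 low genes and for no member. It moved the log2 difference of *Apoc2* between -1.64 and -0.63. For 3 genes it changed the sign or brought the difference to 0. No paired analysis was possible because the table holds 1 value per genotype and carries no replicate numbers.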

Other observations

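The 3 nearest tested genes on each side of each member in the RefSeq order, 60 in all, were looked at after the values of the members were seen. Of these, 3 were past 1.5-fold, a share near the 5.89% of all genes tested. *Ly6c2*, near *Gpihbp1* and of the same family of genes, had 239.9 normalized counts in wild-type against 449 in Npffr1-KO, a log2 ratio of 0.90. *4732471J01Rik*, beside *Lipe*, had a log2 ratio of -0.93, and *Kank3*, beside *Angptl4* and known from endothelial cells, had 2818 and 1874 normalized counts and a log2 ratio of -0.59. Around *G0s2* none was past 1.5-fold. *Hsd11b1*, which regenerates active glucocorticoid and lies next to *G0s2*, had 359 normalized counts in wild-type against 378 in Npffr1-KO. *Lamb3*, on the other side, had 70.8 and 102, a log2 ratio of 0.53.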
